A study of Mus musculus with 51 samples.

Results

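Of the 40468 autosomal H3K4me3 peaks of the extra-embryonic ectoderm (ExE), 1511 were 10000 bp or longer and overlapped no H3K27me3 peak of either tissue in either wild-type cross. They made up 3.73% of the peaks and, with 22.4 Mb, 12.8% of all bases under peaks. The 1833 other peaks of that length carried an H3K27me3 peak, and 20880 peaks without H3K27me3 were shorter. Length is the end minus the start of a peak as the authors merged it for ExE, in steps of 500 bp. The peaks also carry names made of coordinates, and for 666 members the name gives a shorter span than the start and end, under 10000 bp for 340 of them. The start and end were used throughout. The length came from ExE H3K4me3, and the absence of H3K27me3 from the wild-type H3K27me3 peak lists, so the members were chosen by wild-type values of these marks (merged lists of both reciprocal crosses), whose levels there are a description only.

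The tissues were epiblast (Epi), which forms the embryo, and ExE, which contributes to the placenta, dissected from mouse embryos at embryonic day 6.5. Chromatin from pooled embryos was profiled without crosslinking by ultra-low-input ChIP-seq, with 2 libraries per cross, tissue and mark. Crosses are written with the mother first: B6/CAST and CAST/B6 are wild type, where B6 is a C57BL/6 substrain (C57BL6/Babr) and CAST is CAST/EiJ. In matDKO/CAST, females whose oocytes had lost both Dnmt3a and Dnmt3b through Zp3-cre, which is active in growing oocytes, were mated to CAST males. Their embryos start without DNA methylation from the oocyte and carry a deleted maternal copy of both genes, and the mothers had a mixed B6 and 129 background. A library represents a pool of embryos, so that a mark on more cells and more of the mark per cell cannot be told apart. Whether the pools of a group came from separate litters was not stated, and p-values measure the spread between these pools.

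H3K4me3 is laid down at active promoters and is usually confined to a short stretch around the transcription start. Very broad H3K4me3 domains are known from other cell types at genes of cell identity and at highly transcribed genes. H3K27me3 is the mark of Polycomb repression and often covers the CpG islands of developmental genes together with H3K4me3. H3K36me3 follows elongating RNA polymerase II through the bodies of transcribed genes, and as a rule H3K4me3 gives way to it downstream of the start.

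The promoters of 4 members show the range of CpG content found in this group and reappear in the results below. RefSeq promoter sequences on GRCm38.p6 run from 250 bases before a start to 50 after it and are written in the direction of the gene, with every CpG in capitals. Actn4 and Trim71 have 2 of the longest domains, Cubn rose in ExE for both marks, and Mcts2 is imprinted. They lie at chr7:28962283-28962582 (minus strand), chr9:114564320-114564619 (minus), chr2:13491827-13492126 (minus) and chr2:152686898-152687197 (plus), in that order.
Actn4: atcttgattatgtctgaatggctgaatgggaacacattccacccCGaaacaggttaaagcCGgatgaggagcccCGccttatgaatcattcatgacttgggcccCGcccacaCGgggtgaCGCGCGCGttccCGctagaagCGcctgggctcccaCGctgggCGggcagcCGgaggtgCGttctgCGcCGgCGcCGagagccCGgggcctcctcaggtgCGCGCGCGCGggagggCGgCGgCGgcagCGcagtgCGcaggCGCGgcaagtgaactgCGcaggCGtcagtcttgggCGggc
Trim71: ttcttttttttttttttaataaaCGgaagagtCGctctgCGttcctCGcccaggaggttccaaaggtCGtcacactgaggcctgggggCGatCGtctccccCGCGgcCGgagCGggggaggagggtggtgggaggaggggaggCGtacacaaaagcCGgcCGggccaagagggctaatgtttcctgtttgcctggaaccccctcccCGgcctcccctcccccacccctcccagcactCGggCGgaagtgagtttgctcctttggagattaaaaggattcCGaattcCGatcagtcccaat
Cubn: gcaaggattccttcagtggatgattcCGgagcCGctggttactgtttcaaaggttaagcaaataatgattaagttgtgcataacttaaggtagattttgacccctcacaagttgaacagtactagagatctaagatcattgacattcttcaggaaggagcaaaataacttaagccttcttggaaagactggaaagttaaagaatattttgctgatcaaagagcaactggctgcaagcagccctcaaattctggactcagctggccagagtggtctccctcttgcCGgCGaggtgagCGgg
Mcts2: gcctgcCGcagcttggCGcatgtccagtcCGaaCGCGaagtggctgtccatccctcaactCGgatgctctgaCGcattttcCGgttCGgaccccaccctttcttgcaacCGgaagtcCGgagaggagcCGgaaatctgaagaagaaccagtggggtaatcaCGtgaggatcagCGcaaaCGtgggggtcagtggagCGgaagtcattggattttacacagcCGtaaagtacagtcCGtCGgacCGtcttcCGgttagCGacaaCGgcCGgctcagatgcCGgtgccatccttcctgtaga
These windows hold 35, 19, 5 and 25 CpG. Over the 1631 RefSeq promoters that overlapped a member the median was 22, against 7 over all 31396 autosomal promoters, and 85.1% against 44.0% held at least 10. Cubn lies below the lower quartile of the group, 14.

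Depth and replicates were looked at first. Levels are given as RPKM in windows of 1 kb, with a depth of 4.01 to 17.9 M reads for H3K4me3 and 2.09 to 12.6 M reads for H3K36me3. The 2 H3K4me3 replicates of a group correlated at 0.969 to 0.983 over all peaks, except those of matDKO/CAST ExE, at 0.954. Each of the latter correlated better with a B6/CAST ExE library (0.967 and 0.968). The 2 H3K36me3 replicates of a group correlated less. In the wild type they ranged from 0.606 (B6/CAST epiblast) to 0.830 (B6/CAST ExE), and they reached 0.630 in matDKO/CAST ExE and 0.424 in matDKO/CAST epiblast. Both matDKO/CAST epiblast libraries of H3K36me3 stood apart: over the peaks each correlated best with a wild-type ExE library (r of 0.485 and 0.626), and they had 2.09 and 5.61 M reads. H3K36me3 contrasts within matDKO/CAST rest on these libraries, and the wild-type counts are given with and without the matDKO/CAST libraries.

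The members ranged from 10000 to 67000 bp, with a median of 13000 bp (quartiles 11000 and 16500), whereas the shorter peaks without H3K27me3 had a median of 2500 bp. The 188 members of exactly 10000 bp had a median H3K4me3 of 6.02 RPKM, and the 163 peaks of 9500 bp just outside had 6.14 RPKM, so the limit lies on a continuum. The longest member spanned 67 kb (chr4:150227501-150294500) and held the starts of Rere, a transcriptional corepressor, and Eno1, a glycolytic enzyme. The next were 60.5 kb at Trim71 (chr9:114514501-114575000), an RNA-binding ubiquitin ligase of early development, and 55.5 kb at Klf16 and 5 further genes on chromosome 10. Prrc2a with Bag6 (51 kb), Eif4a1 with Sox15 and Cd68 (49.5 kb) and Actn4, which encodes an actin-bundling alpha-actinin (48.5 kb, chr7:28917501-28966000), followed. Among the 15 longest were also Igf2bp1 and Arid3b (42.5 kb each) and the Apoe and Apoc1 cluster (42 kb).

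Such long members need not differ between the tissues in level. Over the Trim71 member H3K4me3 was 6.30 and 5.32 RPKM in B6/CAST epiblast, 7.03 and 6.25 in CAST/B6 epiblast, 5.76 and 5.19 in B6/CAST ExE and 5.55 and 6.56 in CAST/B6 ExE. In matDKO/CAST it was 6.26 and 4.77 in epiblast and 4.28 and 5.53 in ExE, and the tissues overlapped in all 3 crosses. Over Actn4 it was 2.84 and 2.3 RPKM in epiblast and 3.20 and 3.30 in ExE of matDKO/CAST. These values do not overlap, but the difference of 0.29 ± 0.22 (SE, log2 scale) did not pass the limma test (adjusted p = 0.375). In the wild-type peak lists Actn4 was covered by 15 and 7.5 kb in epiblast and by 47 and 48.5 kb in ExE.

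Breadth was not equally stable across the peak lists. In B6/CAST ExE 1259 members (83.3%) overlapped a called peak of at least 10 kb and in CAST/B6 ExE 861 (57.0%), and 665 did so in both. In epiblast the counts were 413 (27.3%) and 310 (20.5%), and the median longest epiblast peak over a member was 7000 and 5500 bp. Only 54 and 136 members had no epiblast peak at all. A peak of at least 10 kb in both crosses of both tissues was found for 221 members, and in both ExE lists but neither epiblast list for 297. The authors' merging of the 2 crosses added to the length, since 56 members had no peak of 10 kb in either ExE list.

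A measure that does not depend on the caller gave smaller differences. With at least 10 windows at 2 RPKM or more as the criterion, 3.18 to 11.3% of the members were broad in any H3K4me3 library. In B6/CAST it was 11.3 and 6.22% of members in ExE and 4.43 and 5.10% in epiblast. In CAST/B6 it was 3.18 and 4.04% in ExE and 3.64 and 3.90% in epiblast. In matDKO/CAST it was 9.13 and 6.42% in ExE and 5.29 and 6.15% in epiblast. The members were chosen for their length in wild-type ExE, which favours a greater breadth there, so these shares are a description and were not tested. In matDKO/CAST, whose libraries the rule had not used, the 2 ExE values lay above the 2 epiblast values by little. The median member had 3 to 6 windows at that level, so most of its length lay below it, and its mean level of 4.67 to 6.64 RPKM came largely from those windows. H3K27me3 over the members was low, with library medians of 0.13 to 0.28 RPKM against 0.60 to 0.90 over the broad peaks with H3K27me3.

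**Figure D1:**
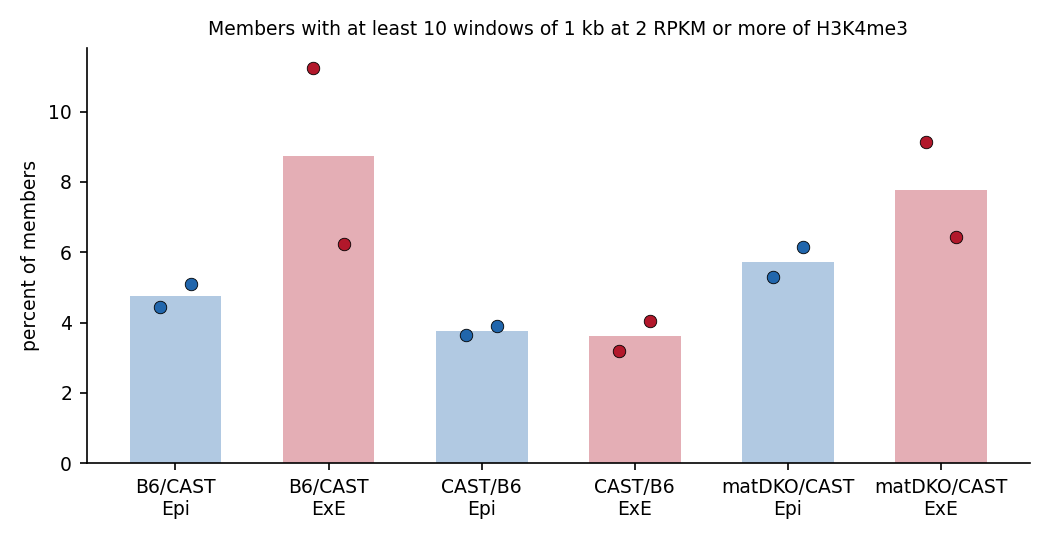
Share of the 1511 members (y axis, percent) with at least 10 windows of 1 kb at 2 RPKM or more of H3K4me3, by cross and tissue. Points are libraries and bars the mean of 2; the highest library is a B6/CAST ExE library at 11.3% and the lowest a CAST/B6 ExE library at 3.18%.

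Most members sat on genes. Of the 1511, 1142 (75.6%) held the start of a protein-coding transcript of GENCODE M21, against 21.0% of the shorter peaks without H3K27me3 and 84.0% of the broad peaks with it. A pair of starts or more was found in 24.95%, against 3.35% of the shorter peaks, and the highest number was 8. Longer peaks have more room for starts, so these shares describe the domains and say nothing per kb. In all, 1685 protein-coding genes, 8.10% of the autosomal set, started in a member. Of the 369 members without such a start 223 overlapped a protein-coding gene, 72 held the start of a long noncoding RNA, microRNA, snoRNA or snRNA gene and 297 a start of none of these kinds.

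Where a member held 1 gene start that could be placed (671 members), it reached a median of 4385 bp upstream and 8707 bp downstream, and 72.1% reached further into the gene than away from it. For 3143 shorter peaks the medians were 1624 and 2649 bp, with 80.8% longer on the gene side. The members covered a median of 29.2% of their gene, and 90 of them (13.4%) covered all of it. CpG density over the members was 17.2 per kb (median), between that of the shorter peaks (13.8) and that of the broad peaks with H3K27me3 (20.9). Members were most numerous on chromosome 11 (135) and least on chromosome 16 (41).

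To see where the extra length lies, wild-type signal was averaged around the starts of genes of at least 20 kb, 445 with a member and 1901 with a shorter peak. At the start itself H3K4me3 was similar, 31.7 RPKM in ExE and 34.1 in epiblast for members and 27.1 and 28.9 for shorter peaks. At 5 kb into the gene the members' genes still had 1.62 RPKM in ExE and 1.36 in epiblast, against 0.36 and 0.26. H3K36me3 at the same distance was 1.53 RPKM in ExE and 1.16 in epiblast for the members' genes and 1.29 and 1.00 for the others. The long tails of H3K4me3 therefore lay in sequence that also carried H3K36me3 in these pools. Across the downstream edge of 340 members, ExE H3K4me3 fell from 6.83 RPKM at 5 kb inside to 0.31 at 1 kb outside, while H3K36me3 was 0.80 RPKM at 10 kb inside and 1.55 at 1 kb outside. The edges were placed on H3K4me3, so its step there is set by the peak call.

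**Figure D2:**
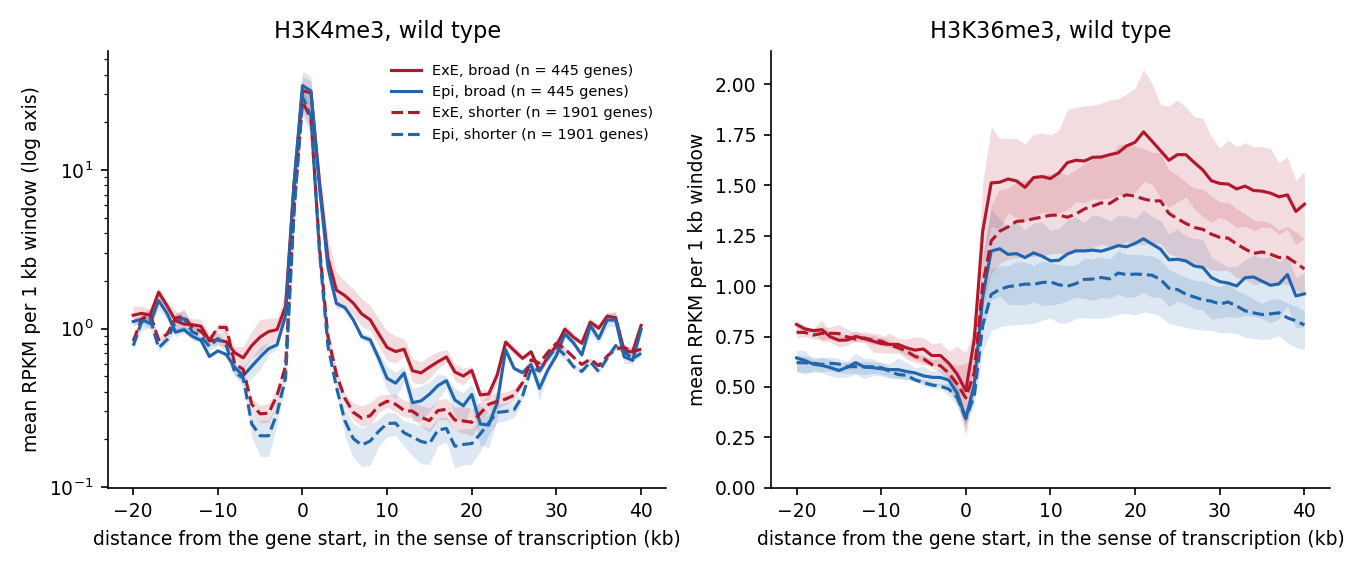
Wild-type H3K4me3 (left, log axis) and H3K36me3 (right) as mean RPKM per 1 kb window against distance from the start of genes of at least 20 kb, for 445 genes with a member (solid) and 1901 with a shorter peak (dashed), ExE in red and epiblast in blue. Bands span the lowest and highest of the 4 libraries of a tissue; at 5 kb downstream the members' genes have 1.62 RPKM of H3K4me3 in ExE and the others 0.36.

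The genes of the members were sorted by lists of known function. Of all autosomal protein-coding symbols 8.09% started in a member and 11.5% in a broad peak with H3K27me3 but no member, and of the long noncoding, miRNA, snoRNA and snRNA symbols 3.89% and 6.08% did. The lists' shares in members ran from 7.05% (noncoding) and 10% (imprinted loci) to 31.3% (cell cycle) and are given as a description. Of 27 autosomal trophoblast transcription factors and regulators, 6 started in a member (Dusp6, Tfeb, Spry4, Elf3, Ets2, Sall4), while 15 started in a broad peak with H3K27me3. Of 31 pluripotency and epiblast genes 6 did (Trim71, Lin28a, Etv5, Dnmt3b, Dnmt3a, Mycn), and 12 were in broad peaks with H3K27me3. Of 96 ribosomal protein symbols, which include the kinase Rps6ka1, 24 started in a member and 38 in a broad peak with H3K27me3. For splicing and RNA-binding factors such as Srsf2, Srsf3, Hnrnpk and Ddx5 the counts were 29 and 16 of 105. Of 32 signalling feedback and immediate early genes 9 started in a member (Ier2, Spry1, Axin2, Zfp36 and others) and 16 in a broad peak with H3K27me3. The counts were 7 and 8 of 25 for cytoskeleton and adhesion (Actb and Myh9 in members), 5 and 4 of 16 for cell cycle and p53 targets (Mdm2, Trp53, Ccnd3, Ccnb1, Bcl2l1) and 5 and 9 of 31 for chromatin regulators (Dnmt1, Kdm5b, Bptf, Chd4, Ehmt2). For histone genes they were 11, in 4 members, and 40 of 67. The noncoding list gave 79 of 1121 genes in 60 members, among them Malat1, and 112 in broad peaks with H3K27me3, and the imprinted loci gave 2 and 7 of 20.

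Many of the noncoding genes were microRNAs, so the loci were checked against RefSeq. Of 919 autosomal hairpins 73 (7.94%) lay in 56 members, and 126 mature sequences lay in members, with 112 different seeds (bases 2 to 8). Of these sequences 8 belong to 5 genes, such as Mir291a, whose hairpin is not in the table used. Only 3 seeds were shared by 3 or more of them, all in the Mir290 to Mir295 and Mir302 clusters, which are best known from early embryonic cells. Printed here, with the seed in capitals, are the sequences whose seeds link the members on chromosomes 3, 5 and 7.
mmu-miR-302b-3p (chr3:127545275-127545297, plus): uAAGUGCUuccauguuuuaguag
mmu-miR-302d-3p (chr3:127545665-127545687, plus): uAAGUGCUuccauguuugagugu
mmu-miR-291a-3p (chr7:3218968-3218989, plus): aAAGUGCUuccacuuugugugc
mmu-miR-294-3p (chr7:3220691-3220712, plus): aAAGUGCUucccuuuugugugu
mmu-miR-295-3p (chr7:3220815-3220837, plus): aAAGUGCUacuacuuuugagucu
mmu-miR-93-5p (chr5:138165574-138165596, minus): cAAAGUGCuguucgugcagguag
mmu-miR-106b-5p (chr5:138165787-138165807, minus): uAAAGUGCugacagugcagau
mmu-miR-367-3p (chr3:127545779-127545800, plus): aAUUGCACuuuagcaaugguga
mmu-miR-25-3p (chr5:138165332-138165353, minus): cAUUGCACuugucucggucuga
The first 5 share 1 seed, the next 2 carry it shifted by a base, and miR-367 and miR-25 share another. miRNA levels were not measured here.

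The Mir290 to Mir295 cluster, expressed in early embryo and trophoblast, had a member of 26.5 kb of its own (chr7:3198001-3224500) with 9 microRNA genes of GENCODE M21 and no protein-coding start. Its H3K4me3 was 5.31 and 3.91 RPKM in matDKO/CAST epiblast and 5.09 and 6.57 in ExE, which overlapped (0.31 ± 0.22 on the log2 scale, limma adjusted p = 0.332). The Mir302 and Mir367 cluster lay in a member of 17.5 kb (chr3:127538501-127556000) with the starts of Larp7 and Zgrf1. There matDKO/CAST had 11.8 and 8.53 RPKM in epiblast and 5.99 and 6.42 in ExE, a difference of -0.65 ± 0.24 (adjusted p = 0.0403) that was lost when values were centred per library or a library was left out. The member of Mir25, Mir93 and Mir106b (22 kb, chr5:138153501-138175500), which are hosted by the replication gene Mcm7, had 8.58 and 6.98 RPKM in epiblast and 7.36 and 8.91 in ExE (adjusted p = 0.897). These clusters were chosen for their seeds after their values had been seen.

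Whether the level differed between the tissues was tested in matDKO/CAST, whose libraries the rule had not used. The members were still chosen for their length in wild-type ExE, which can favour a higher level in that tissue here too. H3K4me3 was higher in ExE over 93 members (6.15%) and higher in epiblast over 14 (0.927%), by limma with Benjamini-Hochberg adjustment below 0.05 over all peaks. Over all 40468 peaks 12.1% were higher in ExE and 12.6% in epiblast, and the members' shares lay below both. By edgeR on the reads recovered from the RPKM the counts were 224 (14.8%) and 59 (3.90%), where 10.4% and 14.4% of all peaks were called, so that the members' ExE-higher share lay above that of all peaks there. The median difference was 0.12 over the members and 0.096 over all peaks on the log2(RPKM + 0.5) scale. A difference beyond 1 was found for 1.79% of the members, 8.87% of the shorter peaks without H3K27me3 and 11.04% of all peaks. The counts rest on few libraries: leaving out any epiblast library, or ExE replicate 2, lowered the ExE-higher count to between 30 and 45, and without ExE replicate 3 it was 109 with 4 higher in epiblast. At unadjusted p-values below 0.05 there were 181 (11.98%) and 26 (1.72%), against 19.99% and 16.1% of all peaks.

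**Figure D3:**
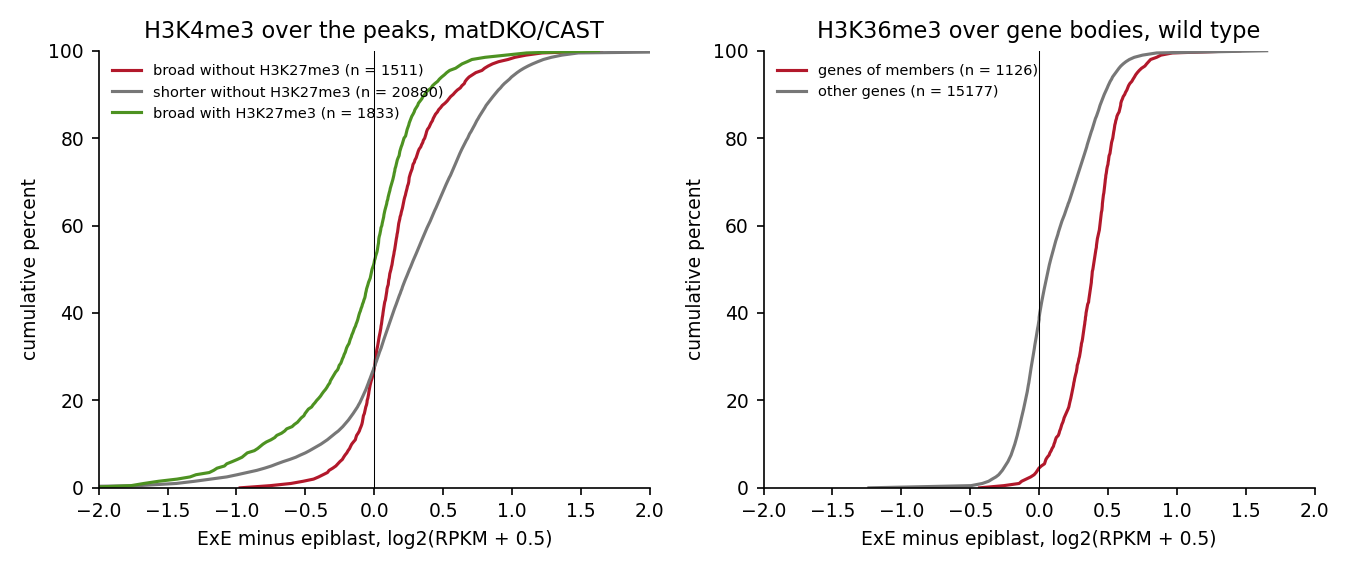
Cumulative percent (y axis) of peaks or genes against the ExE minus epiblast difference in log2(RPKM + 0.5). Left, H3K4me3 in matDKO/CAST over 1511 members, 20880 shorter peaks and 1833 broad peaks with H3K27me3, with the members in the steepest curve; right, wild-type H3K36me3 over the bodies of 1126 members' genes (median 0.39) and 15177 other genes (median 0.067).

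The largest ExE-higher differences were often not at annotated transcript starts. A member of 10 kb at the 5′ end of the gene model of Kat6b, a histone acetyltransferase (chr14:21480501-21490500), had 1.74 and 1.77 RPKM in epiblast and 5.71 and 7.56 in ExE of matDKO/CAST, a difference of 1.65 ± 0.27 (adjusted p = 1.25e-05). A member 24.3 kb from Hnrnpa3 (chr2:75623001-75635000) had 0.672 and 0.749 against 2.33 and 3.37 RPKM. Another, 12 kb from Stac2 (chr11:98065501-98076500), had 3.48 and 2.41 against 7.23 and 8.69 RPKM. Members within Tcf7l1 (1.35), a repressor of Wnt targets, at the 5′ end of the model of Stag1 (1.29), a cohesin subunit, and within Aox2 (1.26), an aldehyde oxidase, had the same direction.

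Among members with a start, Aqp8, a water channel, had 0.461 and 0.363 RPKM in epiblast and 3.00 and 1.56 in ExE (1.56 ± 0.29, adjusted p = 7.36e-05). The difference at Slc23a1, a vitamin C transporter, was 1.36 ± 0.26 (adjusted p = 0.000105). Cubn, which encodes the endocytic receptor cubilin (chr2:13482001-13499000), had 2.18 and 1.17 against 5.11 and 3.10 RPKM (1.09 ± 0.27, adjusted p = 0.00244). Of the 6 trophoblast genes in members, Tfeb (0.92 ± 0.26, adjusted p = 0.00761), a transcription factor of lysosomal and placental vascular genes, and the ETS factor Elf3 (0.80 ± 0.23, adjusted p = 0.00768) were called higher in ExE. These calls rest on single libraries: Tfeb was not called without epiblast replicate 1, without ExE replicate 3 or with the replicate number as a block, Elf3 not without epiblast replicate 1, and Cubn not without either library numbered 2. The other 4 trophoblast genes did not pass, and the list's median was -0.036 against 0.096 over all peaks. None of the signalling, ribosomal, histone, cytoskeletal, cell cycle or chromatin genes in members was called in either direction.

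Cubn is also a marker of visceral endoderm, the cell layer that encloses both tissues. Of 11 visceral endoderm markers, which all lay under an ExE peak, 3 were higher in ExE in matDKO/CAST (Amn, Cubn, Hnf4a). Their summed H3K4me3 at the start was 87.3 to 126 RPKM in epiblast and 117 to 148 in ExE of matDKO/CAST, and 77.3 to 122 against 93.8 to 157 in the wild type, with no marker at 0. Trophoblast markers summed to 133 to 190 RPKM in epiblast and 160 to 201 in ExE of matDKO/CAST, with Tfap2c higher in ExE and Ascl2 in epiblast. Of 10 epiblast markers 7 were higher in epiblast (238 to 334 against 128 to 177 RPKM). Decidua and blood markers summed to 29.2 to 37.8 RPKM in epiblast and 17.6 to 21.1 in ExE, with 4 of 10 under a peak and 3 higher in epiblast. The part of other cell types in these differences was not tested.

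The epiblast-higher members were led by Myo10 (chr15:25751001-25776000), an unconventional myosin of filopodia. It had 4.09 and 3.95 RPKM in epiblast and 1.46 and 2.20 in ExE of matDKO/CAST (-0.97 ± 0.24, adjusted p = 0.00213). Dnmt3a (chr12:3884501-3897000), the de novo DNA methyltransferase that the mothers' oocytes lacked, had 8.30 and 7.52 against 3.69 and 4.38 RPKM (-0.89 ± 0.22, adjusted p = 0.00233). In the wild type Dnmt3a had 6.43 to 7.38 RPKM in the 4 epiblast and 2.46 to 4.57 in the 4 ExE libraries. Dst (-0.82), a cytoskeletal linker, the Wnt receptor gene Fzd7 (-0.79) and members within Fgfr1 (-0.78) and Fryl (-0.77) had the same direction, as did a member 73.8 kb from Sez6l (-0.83). At the members within Fryl and Fgfr1 and near Sez6l the wild-type tissues overlapped. Each of these 7 calls was lost without at least 1 library, and the epiblast-higher count of 14 fell to between 3 and 7 whichever matDKO/CAST library was left out. Myo10 and Dnmt3a were not called without ExE replicate 2, Dst not without epiblast replicate 1, and Fzd7 not without either of these. The member within Fgfr1 was not called without any 1 of the 4 libraries, and those within Fryl and near Sez6l kept their call only without epiblast replicate 1 and ExE replicate 2, respectively.

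**Figure D4:**
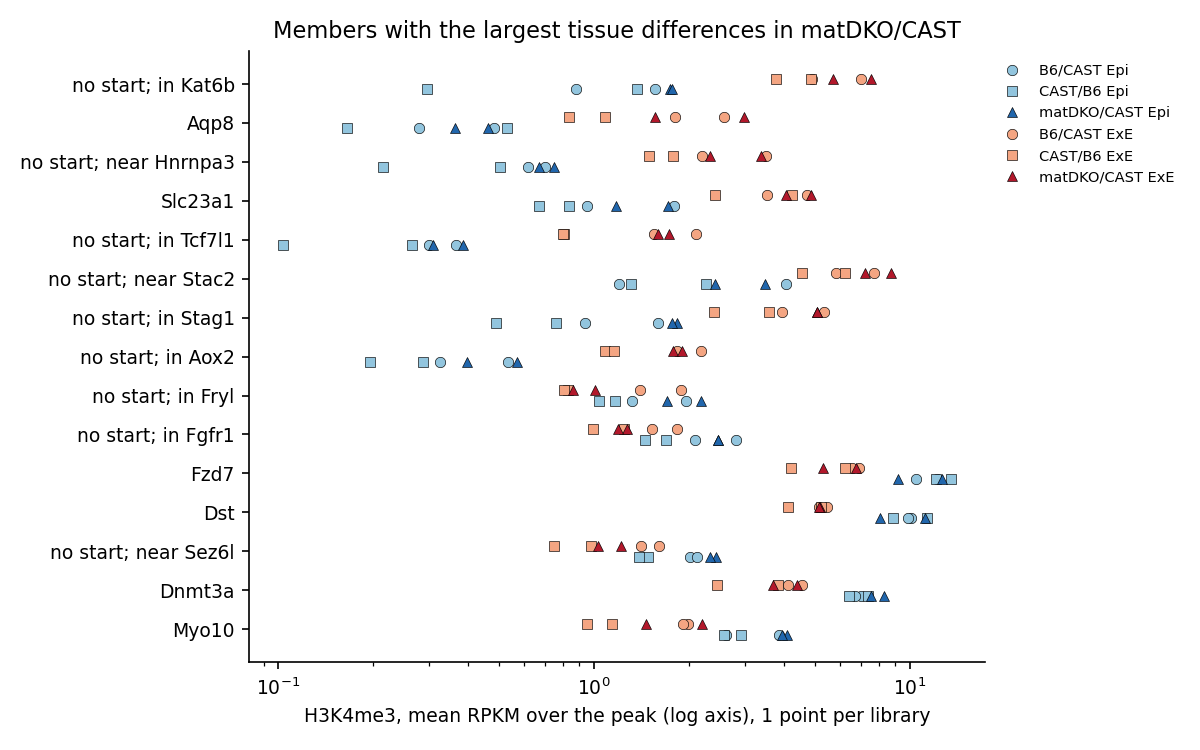
H3K4me3 as mean RPKM over the peak (x axis, log scale), 1 point per library, for 8 members with the largest ExE-higher and 7 of those with the largest epiblast-higher differences in matDKO/CAST; epiblast in blue, ExE in red, symbols for crosses. At Kat6b the 6 epiblast libraries lie below all 6 ExE libraries, and at Dnmt3a they lie above them.

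H3K36me3, which the rule did not use, was then read over the same members. Per the study's methods each chromatin sample was divided among the antibodies, so libraries of different marks can come from the same pool of embryos. The choice of members by length in ExE can also favour more H3K36me3 in that tissue. In the authors' lists a peak of H3K36me3 overlapped 82.7% of the members in B6/CAST ExE and 90.1% in CAST/B6 ExE, against 37.4% and 41.6% of the shorter peaks without H3K27me3 and 53.5% and 65.2% of the broad peaks with it. In epiblast the shares were 61.9% and 77.7% of the members and 23.9% and 35.7% of the shorter peaks. Longer regions are overlapped more easily, so the covered share is given too: the median member lay under H3K36me3 peaks for 56.5% and 100% of its length in ExE and for 20% and 47.6% in epiblast. The median level over the members was 0.743 to 0.944 RPKM in the wild-type and matDKO/CAST ExE libraries, against 0.460 to 0.618 over the shorter peaks. In epiblast it was 0.566 to 0.751 against 0.445 to 0.516 RPKM.

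Between the wild-type tissues H3K36me3 was higher in ExE over 53 members and higher in epiblast over 0 (limma, adjusted over all peaks), where 1.05% and 0.213% of all peaks were called. At unadjusted p-values below 0.05 there were 627 (41.5%) and 15 (0.993%), against 11.6% and 4.11% of all peaks. By edgeR on the recovered reads there were 408 (27%) and 30 (1.99%), against 5.46% and 2.83% of all peaks. The median difference was 0.24 over the members, 0.14 over the broad peaks with H3K27me3, 0.065 over the shorter peaks and 0.044 over all peaks. Above 0 were 87.0% of members and 78.8% of the broad peaks with H3K27me3. Of these 2 groups limma called 3.51% and 2.40% higher in ExE, and 41.5% and 23.2% were so at unadjusted p-values below 0.05. The count moved with the libraries: without those of matDKO/CAST, which share the estimate of spread, it was 275 and 4 (5.06% and 1.27% of all peaks), and leaving out any wild-type library lowered it to between 4 and 10. All 53 had the same sign in matDKO/CAST, where 86.4% of all members were above 0. There limma called 0 members and 0.0% of all peaks. At unadjusted p-values below 0.05 there were 395 (26.1%) and 2 (0.132%), against 10.99% and 4.89% of all peaks. Of the 53, 10 (18.9%) were also called higher in ExE for H3K4me3 in matDKO/CAST, against 6.15% of all members, and they were 10.8% of the members called so.

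The largest differences were found at the member near Stac2 (1.30 ± 0.13), Cubn (1.06 ± 0.14, adjusted p = 0.0055), a member within Arid5b (1.03 ± 0.12, chr10:68228501-68242000) and Dab2 (0.99 ± 0.12, adjusted p = 0.0033). Dab2 (chr15:6383501-6416500) encodes an adaptor for endocytosis and had 0.701, 0.699, 0.984 and 0.949 RPKM in the 4 wild-type epiblast libraries and 2.38, 2.53, 1.64 and 2.08 in the 4 ExE libraries. Over the Cubn member the epiblast libraries had 0.419, 0.486, 0.576 and 0.480 RPKM and the ExE libraries 1.85, 1.71, 1.04 and 1.79. The tissues did not overlap at either gene. The H3K4me3 difference of the Dab2 member was 0.30 ± 0.24 (adjusted p = 0.392).

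The bodies of the genes were measured outside all H3K4me3 peaks. The members' genes entered through ExE H3K4me3 peaks without H3K27me3, which can favour more H3K36me3 in that tissue. The background held all genes with enough windows, with no limit on their level. Of 1126 members' genes with enough windows, 809 (71.8%) had more H3K36me3 in wild-type ExE and 8 more in epiblast, with a background of 33.7% and 7.88% of all 16303 genes (limma). The median difference was 0.39, against 0.067 over the other genes. Without the matDKO/CAST libraries, 837 (74.3%) and 9 (0.799%) were called in the wild type, against 36.1% and 9.93% of all genes. In matDKO/CAST 310 and 0 were called, with a background of 13.1% and 2.22%, and the median was 0.32. Of the 817 wild-type calls 801 had the same sign there, where 92.7% of all members' genes were above 0. At unadjusted p-values below 0.05 there were 615 (54.6%) and 5 (0.444%) in matDKO/CAST, against 27.04% and 7.60% of all genes. When values were centred on the median of all genes, 684 (60.7%) and 18 (1.6%) were called in the wild type, against 26.3% and 13.8% of all genes. Of the list genes in members with a body tested, 11 of 13 splicing and RNA-binding factors, 2 of 5 chromatin regulators, 2 of 4 cell cycle genes, 2 of 3 trophoblast genes, 1 of 4 pluripotency genes and 0 of 2 signalling genes were higher in ExE, against the 71.8% of all members' genes given above. Both cytoskeletal genes, the 1 ribosomal and the 1 imprinted gene tested were also higher in ExE, and none of the lists had a gene called higher in epiblast.

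The body of Cubn (1.46 ± 0.11, adjusted p = 0.00029) had 0.750, 0.568, 0.746 and 0.814 RPKM in wild-type epiblast and 3.29, 3.63, 2.05 and 2.61 in ExE. Creb3l3 (1.25 ± 0.20), a transcription factor of lipid metabolism, the sulfate transporter Slc13a4 (1.23 ± 0.094), the efflux pump Abcc2 (1.15 ± 0.076) and Mttp (1.05 ± 0.079), which loads lipids onto lipoproteins, followed. These transport and lipid genes were named by size alone. Cubn is also a visceral endoderm marker, and as given above 3 of the 11 markers of that layer had more H3K4me3 in ExE of matDKO/CAST (median difference 0.54 over the list). The part of that layer in the H3K36me3 differences was not tested. The 5 largest epiblast-higher differences were small: Prr14 (-0.43 ± 0.13, adjusted p = 0.0264), Sgk1 (-0.29 ± 0.054, adjusted p = 0.00378), Sh3bp4 (-0.28 ± 0.072, adjusted p = 0.0154), Sema6a (-0.26 ± 0.078, adjusted p = 0.0263) and Sash1 (-0.26 ± 0.064, adjusted p = 0.0129). The 8 epiblast-higher calls became 3 to 10 with a library left out and 1 at a limit of 0.01. Prr14 and Sema6a were each lost without 4 of the 8 wild-type libraries, both of CAST/B6 epiblast among them, and Sh3bp4 without CAST/B6 epiblast replicate 1, while Sgk1 and Sash1 were called whichever was left out. Prr14 was also not called without the matDKO/CAST libraries. Over the body of the kinase gene Sgk1 the epiblast libraries had 0.780, 0.658, 0.744 and 0.732 RPKM and the ExE libraries 0.471, 0.419, 0.542 and 0.582. Prr14 had the opposite sign in matDKO/CAST (0.17).

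Allelic balance was read from the reads that cover a variant between the parents, which were counted per peak and parent. A peak counted as informative if 20 reads or more fell on 1 allele in any wild-type library, and 1479 members (97.9%) were, against 46.6% of the shorter peaks without H3K27me3. The median informative member had 610 and 416 allelic reads in B6/CAST and 421 and 396 in CAST/B6, and the median shorter peak 92, 58, 40 and 33. The paternal share was close to equal in the wild type, with medians of 49.1% and 49.1% in B6/CAST and 50.6% and 50.7% in CAST/B6. In matDKO/CAST the medians were 47.2% and 48.9% over the members and 47.4% and 49.2% over the shorter peaks. The members' 5th percentiles were 36.8% and 36.3% there, against 41.1% to 43.1% in the wild type. The part between 40% and 60% was taken over peaks with at least 20 allelic reads in the library. It was 91.98% to 94.5% of members in a wild-type library, against 70.5% to 79.8% of the shorter peaks. These were 1472 to 1479 members and 6418 to 9719 of the 9728 informative shorter peaks, whose shares rest on fewer reads.

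A parental bias in both crosses (edgeR, adjusted p below 0.05 in each) was found at 4 members, 0.27% of those informative, where 0.319% of all 23211 informative peaks passed. All 4 were paternal. The clearest was Kcnq1ot1, the noncoding RNA that silences its imprinted domain from the paternal chromosome (chr7:143284501-143297500), with a paternal share of 97.0% and 97.3% in B6/CAST, and of 96.9% and 98.3% in CAST/B6 (lower limits of the exact 95% intervals 94.8% or more). In matDKO/CAST it had 52.9% and 48.2%, and its total H3K4me3 in ExE was 1.73 times that of B6/CAST. The difference in bias between these crosses passed (edgeR interaction, adjusted p = 3.17e-09). Intervals and limits cover counting error only. Over all informative members 24 differed in this way (1.62%), where 0.892% of all informative peaks did, and each had a lower paternal share in matDKO/CAST. The reads counted for matDKO/CAST were assigned differently, with variants shared by 129 and CAST left out and reads matching 129 added to the maternal side.

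Mcts2 (chr2:152685001-152710500), a retrogene in an intron of H13, had 71.3%, 71.4%, 69.1% and 80.1% paternal reads and 38.4% and 38.3% in matDKO/CAST. A member 15.6 kb from Errfi1 (chr4:150869501-150881500) had 74.8%, 77.4%, 87.7% and 94.6%, and 39.2% and 38.7% in matDKO/CAST, with 1.99 times the total H3K4me3 of B6/CAST. Zfp64 (chr2:168951001-168961500), a zinc finger gene, had 65.1%, 58.2%, 78.5% and 78.7%, and 44.4% and 44.7%, and it was not called without B6/CAST replicate 1. All 4 differed in bias between matDKO/CAST and B6/CAST by the edgeR interaction. The Mcts2 promoter printed above is a small part of its member, and the share was taken over all 25.5 kb.

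In the joint fit over both crosses 8 members had a parent effect, 0.541% of those informative, against 0.711% of all informative peaks. Leaving out a library gave 6 or 7. The 4 added were biased in 1 cross. A member 25 kb from Spry1 (chr3:37665001-37676000) was balanced in B6/CAST (46.5% and 51.9% paternal) and biased in CAST/B6 (81.1% and 74.1%). A member 85.4 kb from Spred2 (chr11:19827001-19839000) had 8.25% and 13.0% in B6/CAST, 46.4% and 48.5% in CAST/B6 and 10.9% and 10.5% in matDKO/CAST. A member 12.5 kb from Slc38a4 (chr15:97068501-97078500) had 78.6% and 85.3% against 64.1% and 57.7%, with 77.4% and 80.4% in matDKO/CAST. The shared start region of Dnaja3 and Coro7 had 49.2% and 49.9% against 43.1% and 40.6%. The members near Spry1 and Slc38a4 were not called without CAST/B6 replicate 1, and Dnaja3 was not called with any library left out, by DESeq2, at another read minimum or at a limit of 0.01.

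Strain bias was called at more members than parental bias by edgeR. Of the members 37 (2.50%) were higher on the allele of the same strain in both crosses, 25 for B6 and 12 for CAST, where 3.96% of all informative peaks were. The largest were on chromosome 4 at the small RNA gene Gm25732, where the paternal share was 13.5% and 19.4% in B6/CAST but 78.5% and 96.6% in CAST/B6, and on chromosome 17 at the sugar phosphate transporter gene Slc37a1, with 73.6% and 74.5% against 24.0% and 22.9%. Spink1, Hist1h4n and a member near Amigo2 were among the next. Leaving out a library left 13 to 19 strain-specific members, and DESeq2 called 5 (0.338%, where 0.702% of all informative peaks were), with 4 of the 6 largest no longer called, while imprinted members numbered 3 or 4 under every alternative run.

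**Figure D5:**
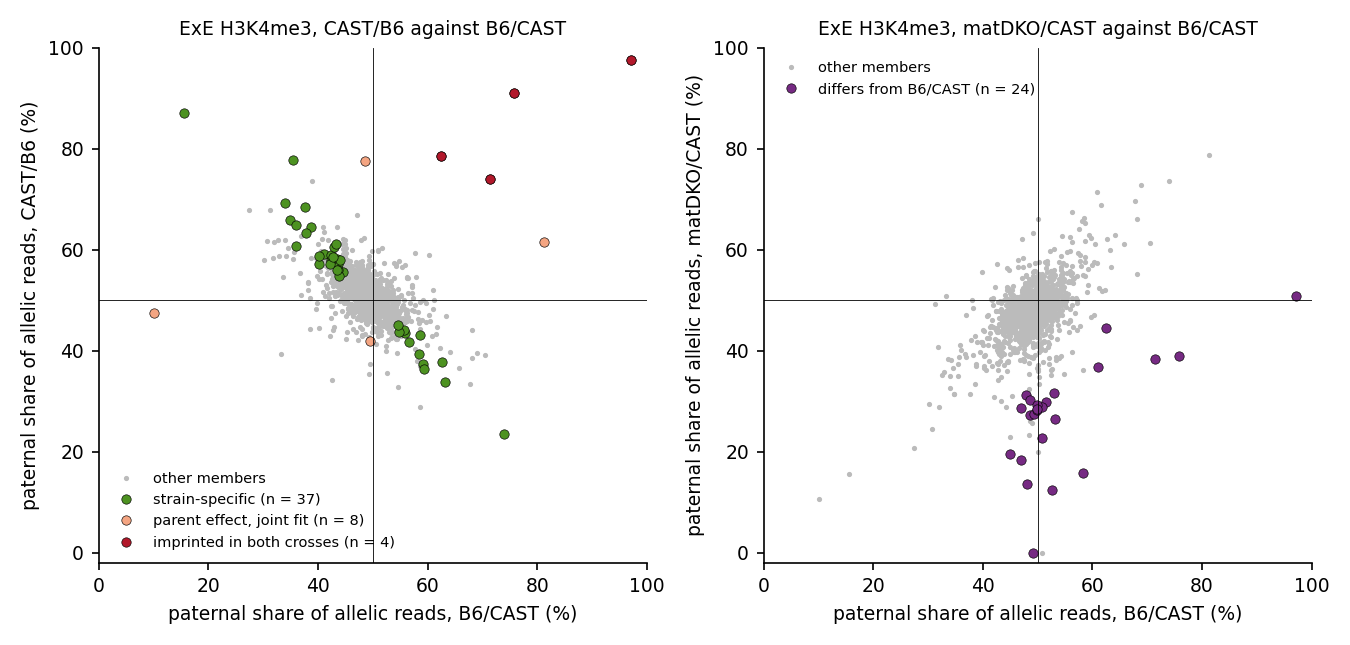
Paternal share of allelic H3K4me3 reads (percent, summed over the 2 libraries of a cross) for the informative members, CAST/B6 (left) and matDKO/CAST (right) against B6/CAST. Left, the 4 imprinted members lie in the upper right corner and the 37 strain-specific ones along the falling diagonal; right, the 24 members that differ from B6/CAST all lie below the rising diagonal, at a lower paternal share in matDKO/CAST.

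Allelic counts of other tables were read at the members. Epiblast H3K4me3 was tested at 1593 peaks that overlap a member, and 2 of them (0.126%) were imprinted, at Mcts2 and Kcnq1ot1, against 0.108% of all 20328 peaks tested. Another 5 (0.314%) were strain-specific, against 0.841% of all, and 3 (0.188%) had a parent effect in the joint fit, against 0.197%. ExE H3K36me3 was tested at 1129 peaks, of which 2 (0.177%) were imprinted, 7 (0.620%) strain-specific and 4 (0.354%) had a parent effect. Over all 7980 such peaks the shares were 0.251%, 1.1% and 0.589%. At Kcnq1ot1 it was paternal with 90.4%, 83.5%, 77.6% and 80.4%, and 44.5% and 46.5% in matDKO/CAST. The H3K36me3 peak over Mcts2 and H13 was maternal, with 37.4%, 41.4%, 35% and 36.4% paternal reads, and 43.1% and 26.2% in matDKO/CAST. This peak (chr2:152670501-152712500) is longer than the Mcts2 member, which it contains and whose H3K4me3 was paternal.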

How the data were processed

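The submitters' processing notes name Trim Galore 0.4.4, Bowtie2 2.3.2 and GRCm38, and per the study's methods strain variants were masked. The authors called peaks with chromstaR per cross and tissue, so that replicates were joined, and only positions were used from these deposited lists, whose score column is 0 in every line. The authors assigned reads to a parent and deposited raw read counts per merged peak and allele, without normalization, and per the methods the matDKO/CAST reads were split in a further step for 129 variants. The authors deposited RPKM for 1 kb windows of all 51 libraries, made from all aligned reads. Low RPKM values were whole multiples of 1 read (tolerance 0.05) in every library, from which reads were recovered.

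Members were found by length and by overlap of at least 1 bp, and coordinates are written from 1. Windows were averaged per peak, and gene bodies used at least 3 windows outside H3K4me3 peaks. Tissue contrasts used limma 3.58.1 on log2(RPKM + 0.5) over the 12 libraries of a mark, with a mean per group and all peaks or genes adjusted together by Benjamini-Hochberg. Allelic contrasts used the quasi-likelihood test of edgeR 4.0.16 on peaks with at least 20 reads in an allele column of a wild-type library. DESeq2 1.42.0 was an alternative. All tests are two-sided. Simulated data were used for the limma contrasts of H3K4me3 in matDKO/CAST and of wild-type H3K36me3, and for the imprinted and joint-fit calls. The strain-specific calls, the difference in bias between matDKO/CAST and B6/CAST and the alternatives were not tried on them. Starts came from GENCODE M21 and promoters and miRNAs from RefSeq on GRCm38.p6. Inputs were not subtracted.

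Named are the 15 longest members, the 8 largest tissue differences of H3K4me3 in each direction, the 5 largest gene-body differences in each direction, all members with a parental effect, the 6 largest strain biases and up to 4 members per gene list. A few members that meet this rule are not reported here. The other genes named are counted members of a list, the largest H3K36me3 differences over the peaks, the miRNA clusters and the members with a changed bias in matDKO/CAST, and these were chosen after their values were seen. The members and lists were chosen with earlier results of these data known.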

Additional observations from a re-analysis of the deposited data

Results flagged for a closer look

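The parental bias of ExE H3K4me3 differed between matDKO/CAST and B6/CAST at 24 members by the interaction of edgeR, 1.62% of those informative, against 0.892% of all informative peaks, and in 24 of them the paternal share was lower in matDKO/CAST. The difference of the log2 paternal over maternal ratio, matDKO/CAST minus B6/CAST, was -4.99 at Kcnq1ot1. The other 3 imprinted members, at Mcts2, Zfp64 and near Errfi1, are among the 24. The remaining 20 had paternal shares of 38.8% to 64.3% in a B6/CAST library and carry genes such as Kdm5b (17.1% and 21.1% paternal in matDKO/CAST), Dnmt3a (25.9% and 18.4%) and Pabpc1 (30.1% and 22.5%).

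The largest was at Rida (chr15:34489001-34499000), with 0 paternal reads of 152 and 193 in matDKO/CAST, which allow a share of up to 1.97% and 1.55% by 3 counts (exact 95% upper limits 2.40% and 1.89%), against 104 of 208 and 69 of 144 reads in B6/CAST. The ornithine decarboxylase gene Odc1 differed by -2.92 (28 of 176 and 11 of 136 paternal reads in matDKO/CAST, 367 of 706 and 274 of 511 in B6/CAST), the prefoldin gene Pfdn5 by -2.88 (50 of 319 and 49 of 308, against 124 of 230 and 110 of 171) and Adnp by -2.45 (16 of 95 and 4 of 52 in matDKO/CAST). Genes with near-identical copies, such as Pabpc1, are uncertain.

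Values of total signal and of read assignment stand beside these calls. Total H3K4me3 in ExE of matDKO/CAST was 1.73 and 1.99 times that of B6/CAST at Kcnq1ot1 and near Errfi1, 1.27 times at Mcts2 and 1.12 times at Zfp64. Over all 24 the median ratio was 0.958, and at Rida it was 1.01. Over the informative members the ratio of allelic reads was 0.600 (median, 5th to 95th percentile 0.308 to 0.728) while that of total signal was 0.967 (0.788 to 1.10). Over the 24 the ratio of allelic reads was 0.509 (median), from 0.256 at Kdm5b and Odc1 to 1.56 at Pfdn5, and 3 of them lay below the 5th percentile of the informative members. Some members had almost no allelic reads in matDKO/CAST at a similar total: Rbm8a had 761 reads in B6/CAST and 0 in matDKO/CAST, Plxnb2 568 and 0, and Bpnt1 2023 and 6, with total ratios of 0.965, 1.00 and 0.986. The part of read assignment in the 24 differences was not tested, and the deletion and the mixed B6 and 129 background of the mothers cannot be told apart in these libraries.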

How the results depend on the processing

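The set itself depends on its limits: 2401 members were found at 8000 bp and 538 at 15000 bp, and 1631 and 1217 with the other definitions of H3K27me3 absence. For H3K4me3 in matDKO/CAST, edgeR on recovered reads gave 224 members higher in ExE and 59 in epiblast, a limit of 0.01 gave 38 and 4, centring gave 9 in epiblast, and leaving out a library gave 30 to 109 and 3 to 7. With the replicate number as a block it was 226 (15%, against 19.8% of all peaks) and 21, but the tissues of matDKO/CAST share only 1 number, so that this fit takes the difference from 1 pair and has 1 residual degree of freedom, and Tfeb was not called in it. For wild-type H3K36me3 over the peaks, the counts in ExE and epiblast were 201 and 3 with a mean of at least 0.5 RPKM, 408 and 30 with edgeR, and 275 and 4 without the matDKO/CAST libraries, a setting chosen after seeing the data. The ExE count was 7 at a limit of 0.01, 4 to 10 with a library left out and 26 with the replicate number as a block. Deviations of same-numbered libraries correlated at 0.014 to 0.053 for H3K36me3, so its numbers were not taken as pairs. For H3K4me3 they correlated at 0.22 and 0.30 in the wild-type crosses and at 0.089 in matDKO/CAST. The epiblast-higher gene bodies numbered 37 with edgeR, 18 when centred, 1 at a limit of 0.01 and 3 to 10 with a library left out, while those higher in ExE stayed between 571 and 863. Strain-specific members numbered 5 with DESeq2, 13 at a limit of 0.01 and 13 to 19 with a library left out, and 54 with the library as a block, while imprinted members stayed at 3 or 4. The cause of these shifts was not tested. The tissue, parent and strain differences followed through the alternatives belonged to named members past the main threshold, and none changed sign. Named members that did not pass, and the differences in bias between matDKO/CAST and B6/CAST, were not followed. The members' share higher in ExE for H3K4me3 lay below that of all peaks by limma (6.15% against 12.1%) and above it by edgeR (14.8% against 10.4%). The smallest H3K36me3 library held 2.09 M reads, and the median H3K36me3 over the members was under 1 RPKM in every library.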
